A study of Rattus norvegicus with 6 samples.

Results

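The genes described here are 40 genes of the extracellular matrix and of the fibroblasts, pericytes and smooth muscle cells that make most of it. They were chosen by name as 18 interstitial matrix genes, 9 basement membrane genes, 10 signalling and remodelling genes and 3 genes for proteins of mesenchymal cells. Of the 40, 32 had a probe whose accession matched, and 30 of these had a probe that was well above background throughout a group, on all 3 of its arrays. These 30 are among 12118 genes tested on the array. The 8 genes with no matched probe were Col5a2, Col6a1, Col6a3, Col12a1, Col4a2, Col4a3, Nid1 and Lox, and they were not analysed here. Lum and Postn were matched but were well above background on 0 and 1 of the 6 arrays, so neither was tested. Each gene was represented by its brightest tested probe.

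Renal cortex came from male Sprague-Dawley (Crl:CD(SD)) rats bought at an age of 5 weeks and kept on a basal diet. One group of 3 received corn oil alone (vehicle). The other 3 rats received 250 mg/kg per day of sulfone bis(p-chlorophenyl), in which 2 chlorophenyl rings flank a sulfone, and dosing lasted 4 weeks in both groups. Expression was read on 1-colour arrays with Cy3-labelled RNA, 1 array per sample and 3 per group.

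Interstitial matrix is laid down mainly by fibroblasts and pericytes, which secrete fibrillar collagens, fibronectin, elastic fibre proteins and small proteoglycans. Basement membranes are thin sheets of type IV collagen, laminin, nidogen and heparan sulfate proteoglycans under epithelia and endothelia, and the one in the glomerulus is part of the filter. Transforming growth factor beta (TGF-beta) is the best known inducer of matrix genes in kidney fibrosis. Metalloproteinases and their inhibitors, the TIMPs, set how fast matrix is broken down, and lysyl oxidases cross-link collagen and elastin.

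All 7 proximal tubule markers and all 7 podocyte markers of the cortex were well above background on all 6 arrays. So were the 6 tested medulla and collecting duct markers and the 4 tested urothelium and pelvis markers. Of all 12118 tested genes, 11682 were, so this does not tell cortex from other parts of the kidney. Between 66.1% and 68.2% of probes were well above background on each array. Values are log2 of the processed signal relative to the 75th percentile of the array, so a value of 0 is that percentile, and a difference of 1 is a doubling. Signals of different probes are not compared with each other. Slide 1 held the 3 vehicle arrays and treated 1, and slide 2 held treated 2 and treated 3. The within-slide difference is therefore treated 1 minus the mean of the vehicle arrays, and it stands beside the difference of each member below. As deviations from the 6-array mean of a gene, liver transcripts differed strongly within groups: the medians of 6 liver markers were 0.73, 0.04 and -2.46 in vehicle 1 to 3 and -0.76, 0.02 and 2.04 in treated 1 to 3.

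The expression of matrix genes as a class was close in the treated and vehicle groups, and 0 of the 30 tested genes passed the limma test adjusted over all probes (3 of 40643 probes, 0.00738%, did). The 30 genes had a median log2 difference of 0.10, against -0.01 over all genes tested. This median was 0.0204 without vehicle 1, 0.022 without treated 1 and 0.16 within slide 1. With an unadjusted p under 0.05, 3 of the 30 (10%) were higher in treated cortex and 3 (10%) were lower, against 10.1% and 11.3% of all tested genes. The unadjusted shares were near the background. The groups did not overlap for 3 higher (10%) and 2 lower (6.67%) members, while 13.9% of all tested genes were higher and 16.8% lower without overlap. Both of these shares were below the background. For 23 of the 30 genes the difference was 0.25 or less in size, and for 13 the 95% interval lay within 0.5 of 0 on both sides. Differences over 0.5 in size were found for 5 members, Thbs1, Ccn2, Col1a1, Col4a4 and Col15a1. That is 16.7% of the members, against 12.1% of all tested genes.

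**Figure D1:**
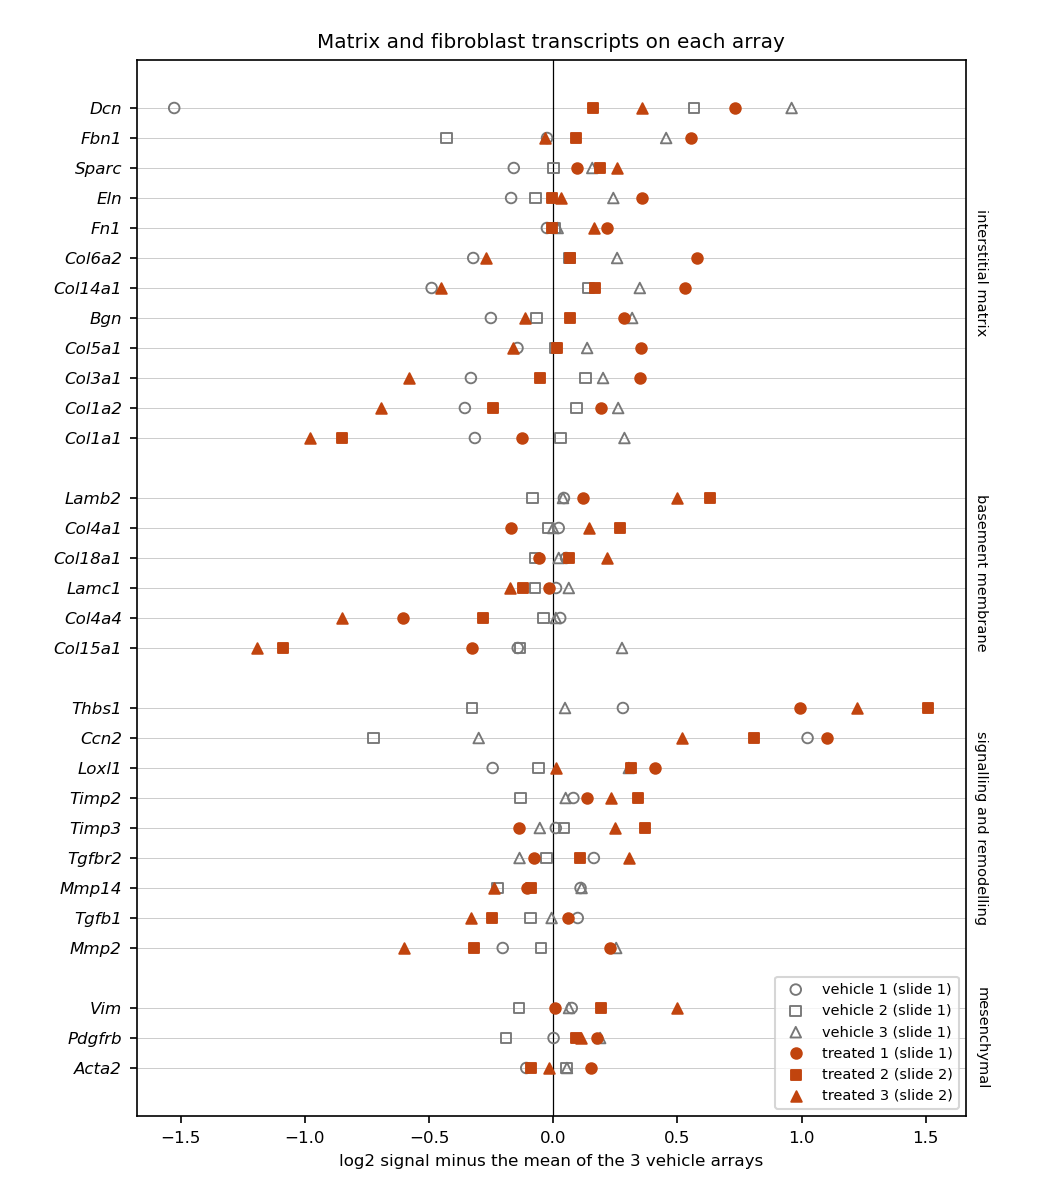
Log2 signal of the 30 tested genes on each of the 6 arrays, minus the mean of the 3 vehicle arrays. Each row is a gene, grouped by role; open grey symbols are vehicle arrays and filled symbols are treated arrays. The groups do not overlap for Thbs1, Timp2 and Lamb2, which are higher in the treated arrays, and for Col4a4 and Col15a1, which are lower.

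Thbs1 and Ccn2, both matricellular genes of the TGF-beta response, had the highest differences among the 30. Thbs1 encodes thrombospondin 1, a secreted glycoprotein that can activate latent TGF-beta. Its log2 signal was -4.74, -5.35 and -4.97 in vehicle 1, 2 and 3 and -4.03, -3.51 and -3.80 in treated 1, 2 and 3. Every treated array lay above every vehicle array. The means were -5.02 ± 0.31 (SD, n = 3) and -3.78 ± 0.26 (SD, n = 3), a log2 difference of 1.24 (SE 0.20), or 2.37-fold. It did not pass over all probes (limma adjusted p = 0.0909). Within slide 1 the difference was 0.99. The probe is dim, and with a normexp background correction, which compresses dim signals, the difference was 0.51.

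Ccn2 encodes connective tissue growth factor, a secreted protein that TGF-beta and mechanical load induce. It had 3.06, 1.31 and 1.73 in vehicle 1, 2 and 3 and 3.14, 2.84 and 2.55 in treated 1, 2 and 3. Vehicle 1 was as high as the treated arrays, and the other vehicle arrays were lower than all of them. The log2 difference was 0.81 (SE 0.46, 95% interval -0.30 to 1.92, limma adjusted p = 0.353), and 1.1 within slide 1. Without vehicle 1 it was 1.32, and without vehicle 2 it was 0.45. The vehicle arrays therefore set its size.

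The promoters of these 2 genes are shown because they carry the largest differences among the signalling genes. Each is the stretch of 250 bases before the transcript start in the RefSeq table of build GRCr8, read 5′ to 3′ on the strand of the gene. Capitals mark matches on either strand to GGAATG, the core recognised by TEAD factors, or to CAGAC, the core of the box bound by SMAD proteins, which carry the TGF-beta signal. Thbs1 lies at chr3:125510000-125510249 on the plus strand and Ccn2 at chr1:22624615-22624864 on the minus strand.
Thbs1: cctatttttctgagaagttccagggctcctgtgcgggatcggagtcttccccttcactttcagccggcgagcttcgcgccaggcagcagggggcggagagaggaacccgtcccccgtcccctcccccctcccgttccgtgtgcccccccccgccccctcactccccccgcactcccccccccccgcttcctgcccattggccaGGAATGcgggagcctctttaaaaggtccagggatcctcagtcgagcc
Ccn2: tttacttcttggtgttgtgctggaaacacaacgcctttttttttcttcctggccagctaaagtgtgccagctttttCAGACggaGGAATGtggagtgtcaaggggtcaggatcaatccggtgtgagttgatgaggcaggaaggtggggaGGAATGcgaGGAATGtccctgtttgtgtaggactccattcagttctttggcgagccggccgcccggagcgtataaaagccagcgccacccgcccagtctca
The Ccn2 window held 3 matches to GGAATG, which began at -166, -101 and -92 from the start, and 1 match to CAGAC at -174. The Thbs1 window held 1 match to GGAATG, at -47, and no match to CAGAC. Of 33469 rat promoters, 12.1% held GGAATG and 42.9% held CAGAC in the same window. Among the 26 members with a promoter entry, 7 held GGAATG and 14 held CAGAC. Other motifs were searched on both strands: TGANTCA, the AP-1 site, was held by 1 of the 26 and 6.34% of all promoters, and GGGCGG, the SP1 core, by 13 of the 26 and 30.5% of all. The CArG box of serum response factor was searched only as CCWWWWWWGG, where W is A or T. That strict form was held by 0 of the 26 and 1.5% of all. Forms with a G or C among the W bases, such as ccctatatgg in the Acta2 window, were not counted. No 2 of the motifs written out overlap in the windows shown.

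The ligand Tgfb1 and the receptor Tgfbr2 differed little. Tgfb1, the main TGF-beta isoform of injured kidney, had -2.25, -2.44 and -2.35 on the vehicle arrays, against -2.29, -2.59 and -2.68 on the treated arrays. The difference was -0.17 (SE 0.12, limma adjusted p = 0.459), and within slide 1 it was 0.06. Tgfbr2, the receptor chain that binds the ligand, had a difference of 0.11 (SE 0.13) and -0.08 within slide 1. Both of its other probes were higher in treated arrays as well, by 0.07 and 0.16.

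Among the genes that break down and stabilise matrix, the inhibitor Timp2 stood apart between groups, by a small amount. Timp2, which inhibits metalloproteinases and also helps to activate one of them, had 3.79, 3.58 and 3.76 in vehicle 1, 2 and 3 and 3.84, 4.05 and 3.94 in treated 1, 2 and 3. The groups did not overlap, with a difference of 0.24 (SE 0.10, limma adjusted p = 0.241) and 0.14 within slide 1. Timp3, the inhibitor that binds to matrix, had a difference of 0.16 (SE 0.14) and -0.14 within slide 1. Mmp2, a gelatinase that cleaves basement membrane collagen, had 0.37, 0.53 and 0.83 on the vehicle arrays, against 0.81, 0.26 and -0.02 on the treated arrays. Its arrays interleaved, with a difference of -0.23 (SE 0.23) that was 0.23 within slide 1. Mmp14, the membrane enzyme that activates Mmp2, had -0.14 (SE 0.12) and -0.10 within slide 1, and Loxl1, which cross-links elastin, had 0.24 (SE 0.18) and 0.41 within slide 1. The 9 tested signalling and remodelling genes had a median of 0.16, with 6 higher and 3 lower.

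The fibrillar collagens were not higher in treated cortex as a group. Of these, Col1a2 and Col3a1 differed more between animals of one group than between groups. Col1a1 encodes the main chain of type I collagen, the collagen of scar. It had 0.61, 0.96 and 1.22 in vehicle 1, 2 and 3 and 0.80, 0.08 and -0.05 in treated 1, 2 and 3. Treated 1 lay inside the vehicle range, and treated 2 and 3 lay below it. The difference was -0.65 (SE 0.27, limma adjusted p = 0.242), but -0.13 within slide 1. Its 2 other probes had -0.61 and -0.15. Col1a2, the partner chain, had 3.11, 3.56 and 3.72 on the vehicle arrays, against 3.65, 3.22 and 2.77 on the treated arrays, a difference of -0.25 (SE 0.27) that was 0.19 within slide 1. Col3a1, the collagen of reticular fibres, had 1.02, 1.48 and 1.55 on the vehicle arrays, against 1.70, 1.29 and 0.77 on the treated arrays. Its difference was -0.10 (SE 0.27), with 0.35 within slide 1. For both Col1a2 and Col3a1 treated 3 was the lowest array and vehicle 1 the next.

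The other collagens of the interstitium also had small differences. Col5a1, which starts fibril assembly, had a difference of 0.07 (SE 0.15) and 0.35 within slide 1. Col6a2, a chain of the beaded-filament collagen around cells, had 0.12 (SE 0.25) and 0.58 within slide 1. Col14a1, which sits on the surface of fibrils, had 0.08 (SE 0.32) and 0.53 within slide 1. Treated 1 was the highest treated array for all 3 of these genes, and vehicle 1 was the lowest vehicle array.

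Elastic fibre proteins, fibronectin and proteoglycans had small differences with 1 exception that came from a single array. Dcn encodes decorin, a proteoglycan that coats collagen fibrils and binds TGF-beta. It had 0.55, 2.64 and 3.03 in vehicle 1, 2 and 3 and 2.80, 2.23 and 2.43 in treated 1, 2 and 3. Vehicle 1 was far below the other 5 arrays. The difference of 0.42 (SE 0.65, 95% interval -1.17 to 1.998), 0.73 within slide 1, became -0.35 without vehicle 1. Bgn, the related proteoglycan biglycan, had 4.78, 4.97 and 5.35 on the vehicle arrays, against 5.32, 5.10 and 4.92 on the treated arrays, a difference of 0.08 (SE 0.18) and 0.285 within slide 1. Sparc, a collagen-binding matricellular protein, had 5.29, 5.45 and 5.60 against 5.54, 5.63 and 5.70, a difference of 0.18 (SE 0.105, limma adjusted p = 0.369) and 0.095 within slide 1. Its highest vehicle array lay above the lowest treated one. Fn1, fibronectin, had 0.13 (SE 0.08), with an interval of -0.08 to 0.33 and 0.22 within slide 1, and another of its probes had 0.20 (SE 0.08), higher without overlap. Eln, elastin, had 0.13 (SE 0.15), and Fbn1, the microfibril protein fibrillin, had 0.20 (SE 0.26). Within slide 1 these were 0.36 and 0.55.

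Across the 12 tested interstitial matrix genes the same arrays were high and low. Vehicle 1 was the lowest vehicle array for 11 of the 12, and treated 1 was the highest treated array for 11 of the 12. Over all tested genes these shares were 36.8% and 35.5%. As a deviation from the 6-array mean of a gene, the median of the 12 was -0.24, -0.01 and 0.26 in vehicle 1, 2 and 3 and 0.32, -0.01 and -0.18 in treated 1, 2 and 3. The ranges of the groups overlapped almost entirely. The median treated minus vehicle difference of the 12 was 0.10, but 0.35 for treated 1 alone and -0.05 for the mean of treated 2 and 3. This pattern was chosen after the values were seen, and genes that share a cell type are not independent. Fibroblast markers other than matrix genes gave -0.22, -0.11 and 0.24 on the vehicle arrays, against 0.06, 0.08 and -0.06 on the treated arrays. Liver markers ran the other way: they were lowest in vehicle 3 and treated 1, where the interstitial genes were highest. Proximal tubule markers were lowest there too, with 0.08, -0.01 and -0.04 on the vehicle and -0.24, 0.13 and 0.12 on the treated arrays. Medulla and collecting duct markers had -0.15, -0.02 and 0.11, against -0.01, -0.03 and 0.08. Other interstitial matrix genes had -0.26, -0.04 and 0.19, against 0.20, 0.05 and -0.01. Whether the mix of cells or liver RNA moved the matrix values was not tested. In tissue RNA, fewer cells of a type and less RNA per cell cannot be told apart.

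**Figure D2:**
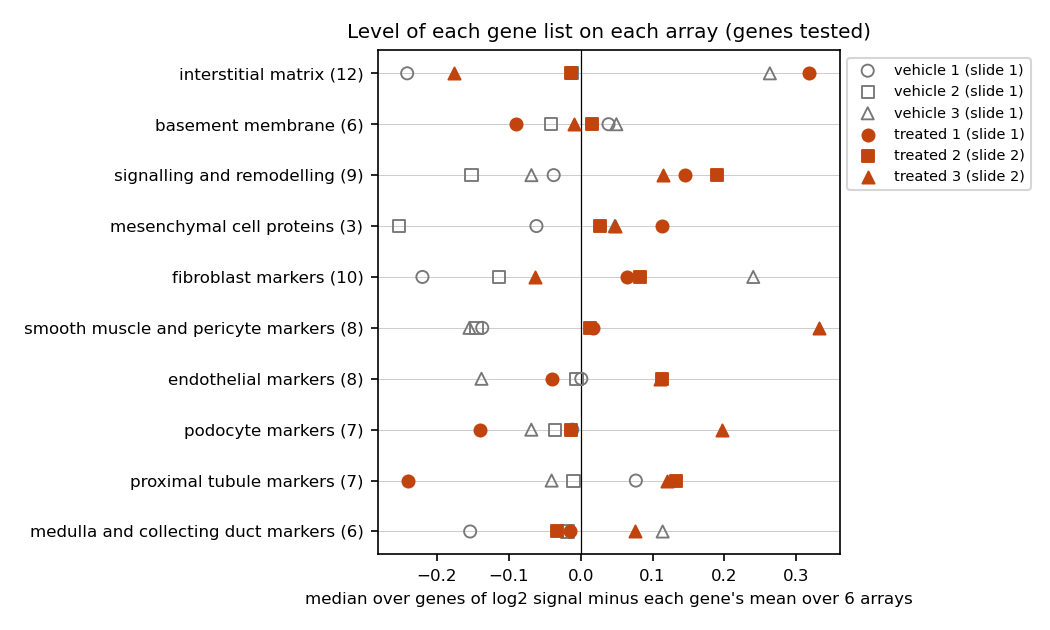
Median level of each gene list on each array, as log2 signal minus each gene's mean over the 6 arrays; the number of tested genes is in brackets. Interstitial matrix genes run from -0.24 in vehicle 1 to 0.32 in treated 1 with both groups mixed. The signalling and remodelling medians lie between -0.15 and -0.04 in the vehicle arrays and between 0.11 and 0.19 in the treated arrays. Of these 9 genes, 6 are higher and 3 lower. The medians of smooth muscle and pericyte markers also do not overlap between groups. The same holds for other TGF-beta pathway genes and adipocyte markers, which are not plotted here. With slide as a random block, the signalling and remodelling median difference is 0.0293.

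Basement membrane genes held both of the members that were lower without overlap, and 1 of those that were higher. Of the 6 tested genes of this role, 33.3% were lower and 16.7% higher without overlap. Among all tested genes 16.8% were lower and 13.9% higher without overlap. With so few genes these shares do not set the role apart from the background, and the contrast was not tested. Col4a4 encodes a chain that joins those of Col4a3 and Col4a5 in the mature glomerular basement membrane, where podocytes make it. It had 2.95, 2.88 and 2.93 in vehicle 1, 2 and 3 and 2.31, 2.64 and 2.07 in treated 1, 2 and 3. The vehicle arrays were tightly grouped and all 3 treated arrays were lower. The means were 2.92 ± 0.03 (SD, n = 3) and 2.34 ± 0.28 (SD, n = 3). The difference was -0.58 (SE 0.15, limma adjusted p = 0.144), 0.669 times the vehicle level, and -0.61 within slide 1. Its other probe had -0.49, also without overlap. The 7 podocyte markers had a median difference of 0.16, and their summed signal, in multiples of the 75th percentile of the array, was 35.7 to 37.8 in the vehicle and 35.8 to 53.9 in the treated arrays. The highest sum was that of treated 3, where Podxl, a sialomucin of podocyte foot processes, had 4.96, against 4.03 to 4.26 on the other arrays. Within slide 1 the median of these markers was -0.0623.

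Col15a1 encodes a proteoglycan collagen of the basement membrane zone around vessels and tubules. It had 0.12, 0.13 and 0.54 in vehicle 1, 2 and 3 and -0.06, -0.82 and -0.93 in treated 1, 2 and 3. All treated arrays were lower, treated 1 by the least. The difference was -0.87 (SE 0.26, limma adjusted p = 0.17), 0.548 times the vehicle level, and -0.33 within slide 1. Its other probe had -0.64, with overlap between the groups and -0.005 within slide 1. Col18a1, the related collagen that contains endostatin, had 2.75, 2.63 and 2.72 on the vehicle arrays, against 2.65, 2.76 and 2.92 on the treated arrays. Its difference was 0.075 (SE 0.10), and -0.0554 within slide 1, while that of Col15a1 was negative in both. The contrast between these relatives was not tested.

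Lamb2 encodes the laminin beta chain of the mature glomerular basement membrane. It had 1.28, 1.16 and 1.28 in vehicle 1, 2 and 3 and 1.36, 1.87 and 1.74 in treated 1, 2 and 3. All treated arrays were higher, treated 1 by little. The difference was 0.42 (SE 0.14, limma adjusted p = 0.201), and 0.12 within slide 1. Lamc1, the gamma chain shared by most laminins, had -0.10 (SE 0.08) and -0.02 within slide 1. Its 2 dimmer probes disagreed: one had -0.36 (SE 0.07, limma adjusted p = 0.111), lower without overlap and -0.40 within slide 1, and the other had 0.18 (SE 0.36). Col4a1, a chain of the type IV collagen found in all basement membranes, had 4.19, 4.15 and 4.17 on the vehicle arrays, against 4.003, 4.44 and 4.32 on the treated arrays. Treated 1 was below and the other treated arrays above the vehicle arrays, with a difference of 0.08 (SE 0.12) and -0.17 within slide 1. Its 3 other probes had differences of 0.03 to 0.11. The 6 tested basement membrane genes had a median of -0.01, with 3 higher and 3 lower.

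The promoters of the 2 lower genes are shown from the same table and build. Col4a4 and Col4a3 are transcribed away from each other, as are Col4a1 and Col4a2, and each pair shares its upstream bases: the 250-base windows of Col4a3 and Col4a4 overlap by 88 bases and those of Col4a1 and Col4a2 by 76. Col4a4 lies at chr9:91323578-91323827 on the minus strand and Col15a1 at chr5:66297296-66297545 on the plus strand. Capitals mark the same cores as above.
Col4a4: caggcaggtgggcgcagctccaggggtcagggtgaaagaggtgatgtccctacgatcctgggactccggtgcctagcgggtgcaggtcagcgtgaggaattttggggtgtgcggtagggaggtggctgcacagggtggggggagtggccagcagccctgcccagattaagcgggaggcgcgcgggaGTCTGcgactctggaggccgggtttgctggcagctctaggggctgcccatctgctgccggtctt
Col15a1: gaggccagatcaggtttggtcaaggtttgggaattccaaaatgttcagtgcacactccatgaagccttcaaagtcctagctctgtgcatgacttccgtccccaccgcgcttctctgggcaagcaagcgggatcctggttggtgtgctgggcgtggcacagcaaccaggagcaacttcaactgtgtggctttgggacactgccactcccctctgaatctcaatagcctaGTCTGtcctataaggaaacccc
Each window held 1 match to CAGAC, read on the opposite strand as its complement, at -64 in Col4a4 and -22 in Col15a1, and no match to GGAATG.

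The 3 genes for proteins of mesenchymal cells had differences of at most 0.23. Acta2, the smooth muscle actin that marks myofibroblasts, had -1.09, -0.93 and -0.93 in vehicle 1, 2 and 3 and -0.83, -1.07 and -0.998 in treated 1, 2 and 3. The arrays of the groups were interleaved, with a difference of 0.01 (SE 0.10, 95% interval -0.22 to 0.25) and 0.15 within slide 1. Pdgfrb, the growth factor receptor of pericytes and fibroblasts, had 0.11, -0.08 and 0.30 on the vehicle arrays, against 0.29, 0.20 and 0.22 on the treated arrays, a difference of 0.13 (SE 0.11) and 0.18 within slide 1. Vim, the intermediate filament protein vimentin, had 0.87, 0.66 and 0.86 against 0.81, 0.99 and 1.30, a difference of 0.23 (SE 0.14) that was 0.01 within slide 1.

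**Figure D3:**
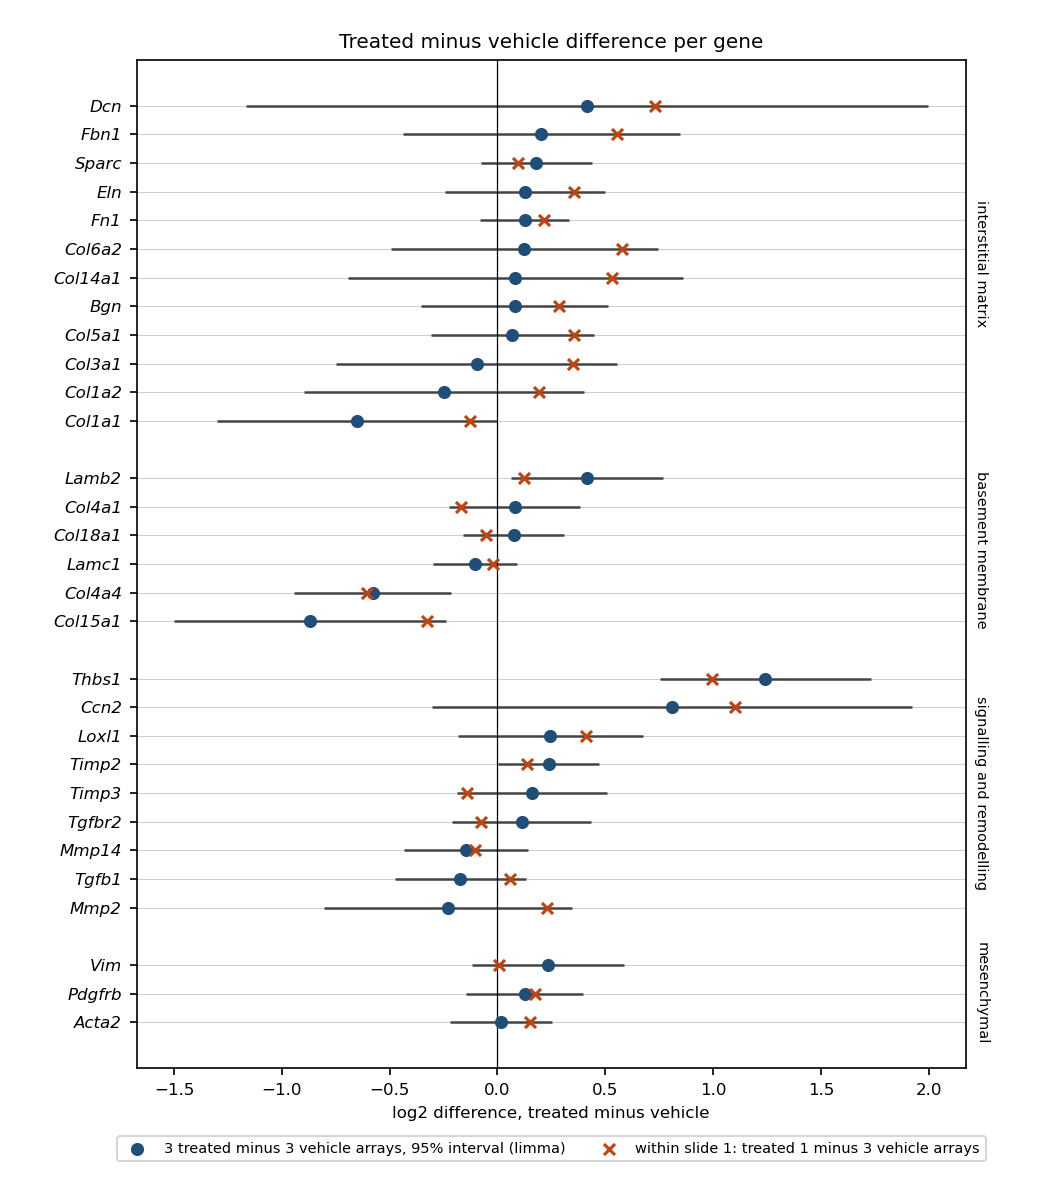
Treated minus vehicle log2 difference of each tested gene with its 95% limma interval (dots and lines), and treated 1 minus the vehicle mean within slide 1 (crosses). The intervals, which are not adjusted for the number of probes, lie clearly off 0 for Thbs1, Col4a4 and Col15a1. That of Lamb2 begins at 0.06, and those of Timp2 and Col1a1 end next to 0. None of these genes passed the test adjusted over all probes. The slide 1 value has the sign of the full difference for 22 of the 30 genes.

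Probes of the same gene mostly pointed one way. Of 18 members with more than 1 tested probe, 13 had all probes on the same side of 0. The other 5, Col5a1, Col6a2, Eln, Fbn1 and Lamc1, had probes on both sides. The widest disagreement was in Fbn1, whose brightest probe had 0.20 and whose other probe had -0.42.

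The wider matrix pathway was read from 6 further lists. In none of them did a gene pass adjusted over all probes, and the percentages of all tested genes with an unadjusted p under 0.05 given above (10.1% higher, 11.3% lower) are the background. Among 18 tested other TGF-beta pathway genes, 7 (38.9%) were higher and 2 (11.1%) lower at that unadjusted threshold, with a median of 0.26. The list was put together with results of these data known, so its count is a description. Ltbp2, a microfibril protein of the latent TGF-beta binding protein family, had 0.86 (SE 0.27), and Pmepa1, a feedback inhibitor of the pathway, had -0.55 (SE 0.17), both without overlap. Within slide 1 these were 0.92 and -0.85. On slide 1 alone the list median was 0.13.

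Among 17 other interstitial matrix genes, 2 were higher and 1 lower at the unadjusted threshold, with a median of 0.09. That median was 0.28 within slide 1, -0.07 without vehicle 1 and -0.0347 without treated 1. Fmod, the collagen-binding proteoglycan fibromodulin, had -1.28, -1.62 and -1.45 on the vehicle arrays, against -0.57, -0.90 and -0.29 on the treated arrays, a difference of 0.87 (SE 0.18, limma adjusted p = 0.113) and 0.89 within slide 1. Col8a1, a short-chain collagen of vessel walls, had 0.69 (SE 0.14), and Col5a3, a minor fibrillar chain, had -0.34 (SE 0.10). Within slide 1 these were 0.46 and -0.19. Of 18 collagen processing enzymes, 1 was higher and 0 lower, with a median of 0.03: Bmp1, which trims procollagen, had 0.69 (SE 0.18) but 0.30 within slide 1. Of 16 other proteases and inhibitors, 3 were higher and 1 lower, with a median of 0.06. They included Mep1a, a meprin of the proximal tubule brush border (0.47, SE 0.12), Plaur, the urokinase receptor (0.28, SE 0.08), and the inhibitor Timp4 (-0.445, SE 0.18), with 0.52, 0.34 and -0.45 within slide 1. Of 13 integrins and matrix receptors, 0 were higher and 1 lower, with a median of -0.09. That gene was Itga6, a subunit of laminin receptors, with -0.70 (SE 0.22) and -1.0 within slide 1. None of the 6 tested other basement membrane genes had an unadjusted p under 0.05, and their largest differences were 0.32 for Lama1 (SE 0.47) and 0.30 for Lama5 (SE 0.14), both laminin alpha chains. Within slide 1 these were -0.72 and 0.01. With 1 array left out, list medians ran from -0.0529 to 0.17 for these basement membrane genes, from -0.0047 to 0.053 for the processing enzymes, from 0.001 to 0.11 for the proteases and inhibitors and from -0.0925 to 0.0324 for the integrins.

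**Figure D4:**
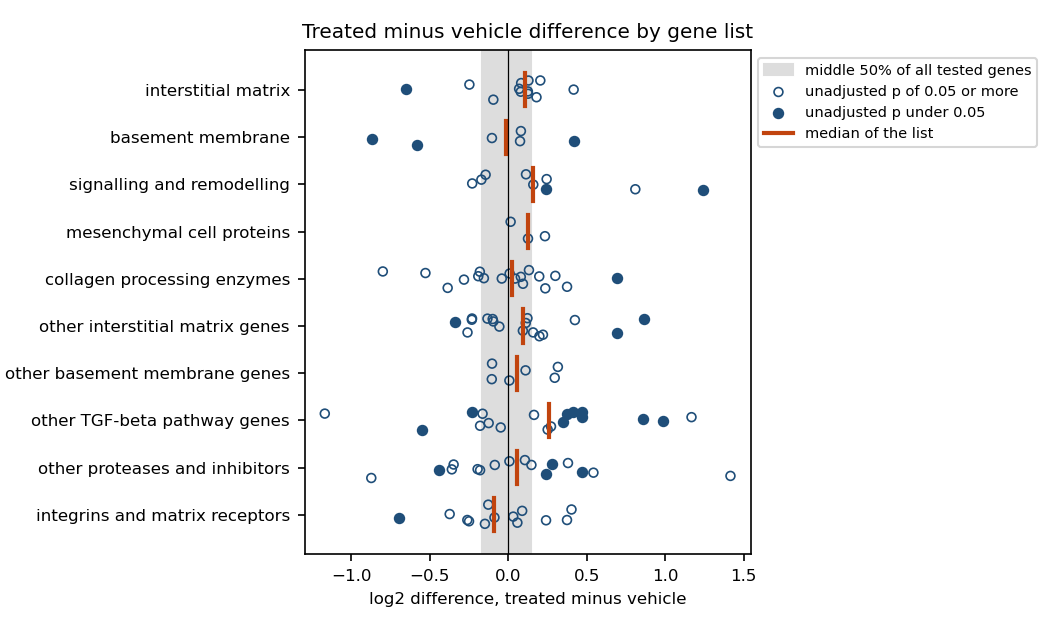
Treated minus vehicle log2 difference of every tested gene in the 4 role groups and the 6 further lists. Filled dots have an unadjusted p under 0.05 in the limma fit, thick bars are list medians, and the grey band holds the middle 50% of all tested genes. The band ends at 0.146. The TGF-beta pathway list, with a median of 0.26, and the signalling and remodelling genes, with 0.159, lie to its right. On slide 1 alone their medians are 0.133 and 0.135.

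Markers of the cells that make or border matrix moved as follows. Of 12 fibroblast markers, 10 were tested, with a median difference of 0.09 and summed signals of 8.94 to 12.2 in the vehicle and 10.8 to 12.6 in the treated arrays. Fap was not well above background on all arrays of a group, and Dpt was not analysed here. Pdgfra, a receptor of interstitial fibroblasts, had 0.40 (SE 0.16), and Islr, a stromal cell marker, had 0.01 (SE 0.15). In this list 1 marker was higher and 1 lower at the unadjusted threshold, and both are named after their values were seen. Scara5, a receptor of fibroblasts, had a difference of 2.83 (SE 1.09, limma adjusted p = 0.227) and 2.91 within slide 1, and it was well above background on 2 of 3 vehicle arrays. Gli1, a transcription factor of perivascular mesenchymal cells, had -1.05 (SE 0.29, limma adjusted p = 0.154) and -0.59 within slide 1, and it was well above background on 1 of 3 treated arrays. Smooth muscle and pericyte markers had a median of 0.36 over 8 tested genes, 0.11 on slide 1. At the unadjusted threshold 3 (37.5%) were higher and 1 (12.5%) lower, against 10.1% and 11.3% of all tested genes. The lower one was Actg2, with -0.50 (SE 0.19), without overlap, and -0.26 within slide 1. Tagln, a smooth muscle actin-binding protein, had -0.42, -0.15 and -0.21 on the vehicle arrays, against 0.57, 0.61 and 1.16 on the treated arrays, a difference of 1.04 (SE 0.18, limma adjusted p = 0.0957), beside 0.01 for Acta2. On slide 1 alone Tagln had 0.83. The other higher ones were Myh11, with 0.47 (SE 0.16), and Des, with 0.36 (SE 0.13), both without overlap. On slide 1 alone they had 0.26 and 0.19. Tagln, Myh11, Des and Actg2 were picked out after their values were seen. Notch3, a receptor of mural cells, had -0.13 (SE 0.10). Endothelial markers had a median of 0.04 over 8 tested genes, with 2 (25%) higher and 0 lower at the unadjusted threshold. The 2 were Ehd3, with 1.15 (SE 0.20, limma adjusted p = 0.0957), and Flt1, with 0.45 (SE 0.13), both without overlap. Within slide 1 they had 0.78 and 0.20, and both are named after their values were seen. Proximal tubule markers had a median of 0.01. Medians were 0.06 for medulla and collecting duct and 0.58 for liver markers (6 tested genes each). They were 0.09 for urothelium and pelvis, 0.61 for adipocyte and -0.30 for macrophage markers (4 tested genes each). Within slide 1 the medians were -0.32 for proximal tubule, 1.41 for adipocyte, -0.0562 for macrophage and -0.52 for liver markers. The part of these in the matrix values was not tested.

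One array decided how many members passed. Without treated 1, Thbs1 (1.37), Lamb2 (0.57) and Col15a1 (-1.14) passed over all probes, with limma adjusted p-values of 0.028, 0.0262 and 0.0234. In that fit 9.6% of all tested genes passed, so the share of 3 in 30 was near the background. The 2 treated arrays that remain are those of slide 2, so slide and treatment cannot be told apart there.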

How the data were processed

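RNA of renal cortex from 6 rats was labelled with Cy3 and hybridised to 1-colour Agilent arrays, per the labels' protocols. Per the file headers, the authors extracted linear intensity values per spot with Agilent Feature Extraction 10.7.1.1, and the processed signal deposited is background-subtracted; the submitters' processing notes give version 10.7. The authors' series table of linear intensity served as an alternative: its log2 values tracked the scanner values closely, and its column medians were 0.105 to 0.11.

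Computed here: log2 of the processed signal over the 75th percentile of the array, over 61537 non-control probes, of which 0 were saturated while 11 carried an outlier flag and were dropped. Testing required a probe to be well above background on all 3 arrays of a group (40643 probes). Accessions were matched without versions to RefSeq (GRCr8): 28206 probes had 1 symbol, 33331 none. The two-sided test was that of limma 3.58.1 (R 4.3.3), with Benjamini-Hochberg adjustment over all tested probes at 0.05; the test was tested on simulated data. The number of arrays limits the precision.

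The 40 members and the lists were chosen with earlier results of these data known, and lists are described by counts and medians without a test. Genes were named by rule: every member, up to 3 genes per further list with an unadjusted p under 0.05 and the largest difference, else 2, and 2 genes per marker list by level, of which those of fibroblast and smooth muscle are printed. Some genes that the rule names are not reported here. Promoter bases are RefSeq's. Normexp used the median spot signal. Alternatives covered background, normalization, filter, slide, replicate number, variance model, value source, probe choice and each array left out.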

Additional observations from a re-analysis of the deposited data

How the results depend on the processing

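No alternative fit placed a member past the adjusted threshold except leaving out arrays (0 to 3 members). Probes called numbered 3, but 136 with normexp, 17 with median centring, 1 without a filter, 0 with probes above background on all 6 arrays, 1 with slide as a fixed block, 153 with a variance trend and 0 to 4307 with 1 array left out. The replicate numbers gave no sign of paired animals: deviations of same-numbered arrays correlated at -0.211, 0.014 and -0.159. These values cannot exclude a pairing. With the replicate block 0 probes passed. Members higher at the unadjusted threshold numbered 3, but 1 with slide as a fixed block, as a random block or with the replicate block, and 1 to 6 with an array left out; members lower numbered 3, but 1 with slide fixed and 1 to 5 with an array left out. Members without overlap, higher and lower, numbered 3 to 8 and 2 to 6 with an array left out. With slide as a fixed block the signs of 8 members turned, to 0.19 for Col1a2, 0.35 for Col3a1, -0.17 for Col4a1, -0.0554 for Col18a1, 0.0597 for Tgfb1, -0.0775 for Tgfbr2, 0.23 for Mmp2 and -0.14 for Timp3, and the basement membrane median moved from -0.01 to -0.11. That fit rests on treated 1 as the lone treated array of slide 1, by construction. With slide as a random block Col3a1 had 0.10, Col4a1 had -0.0297, and the signalling and remodelling median moved from 0.16 to 0.0293. With the mean of a gene's probes Col6a2 had -0.0048, Fbn1 -0.11 and Eln -0.0398. With 1 array left out, values crossed 0 in Col3a1 (-0.32 to 0.15), Col5a1 (-0.0736 to 0.18), Col6a2 (-0.10 to 0.32), Col14a1 (-0.16 to 0.35), Fbn1 (-0.0107 to 0.43), Dcn (-0.35 to 0.90), Bgn (-0.0462 to 0.24), Col4a1 (-0.0138 to 0.21) and Acta2 (-0.053 to 0.0668). Without treated 1, 4307 probes and 3 members passed. Of 510 member values under alternatives, 479 kept sign and side of the threshold, 28 turned sign and 3 passed; 14 members kept 1 sign throughout. The cause of these shifts was not tested.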

Other observations

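Some probes of matrix genes were too dim for a comparison. The single Lum probe, for the proteoglycan lumican, was well above background on 0 of 6 arrays. The Postn probe, for the matricellular protein periostin, had -7.91, -5.52 and -7.78 in vehicle 1, 2 and 3 and -7.56, -7.77 and -7.22 in treated 1, 2 and 3, and only vehicle 2 was well above background. Of the 4 Col14a1 probes, 3 were not tested. One of them had -7.80, -7.79 and -7.62 on the vehicle arrays, against -7.39, -5.60 and -4.99 on the treated arrays, with 1 treated array well above background, while the brightest probe differed by 0.08.

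Tgfb2 and Mep1b, genes of the wider pathway, had large estimates with wide errors. Tgfb2, another TGF-beta ligand, had a difference of -1.17 (SE 0.87), and Mep1b, a meprin of the brush border, had 1.42 (SE 0.73), with limma adjusted p-values of 0.47 and 0.318. In Mep1b, vehicle 1 had 1.35 against 3.26 and 4.22 in vehicle 2 and 3, so the same animal that was low for Dcn was also low here. These genes were chosen after their values were seen.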
